A study of Mus musculus with 15 samples.

Results

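The genes described here are 37 nuclear receptors and nuclear receptor cofactors, a list of gene symbols whose H3K4me3 peaks were compared among the livers of mice fed 5 diets. All 37 symbols matched 1 protein-coding gene each, of the 21755 protein-coding genes annotated on chromosomes 1 to 19 and X. The list holds 7 receptors grouped under bile acid and lipid sensing, 2 xenobiotic receptors, 6 retinoid receptors, 7 receptors of steroids, thyroid hormone and vitamin D, 10 orphan receptors and 5 cofactors. Membership is by gene symbol and applies no threshold to a measured value. The list was chosen with earlier results of these data known.

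Nuclear receptors are transcription factors that bind DNA at short repeated elements and change the transcription of nearby genes when a small lipophilic ligand binds to them. Many of the receptors of bile acids, oxysterols and fatty acids act as heterodimers with a retinoid X receptor (RXR), and they recruit coactivators such as the Ncoa proteins or corepressors such as Ncor1. In the liver they are known for the control of bile acid, cholesterol, fat and drug metabolism. H3K4me3, histone H3 trimethylated at lysine 4, is a mark of the promoters of active genes, and it is also found at many CpG-rich promoters whatever their activity.

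H3K4me3 was measured by PAT-ChIP-seq, a form of ChIP-seq that starts from archived tissue fixed in formalin and embedded in paraffin. Chromatin came from sections of the livers of 15 female C57BL/6 mice (C57BL/6J in the study's methods), with 1 library per mouse and 3 mice per diet. The diets were standard diet ad libitum (SD), caloric restriction (CR), high-fat diet ad libitum (HF), a diet based on yellow corn ad libitum (YD) and a diet based on purple corn ad libitum (RD). In YD and RD the maize of the standard diet was replaced with seed powder of a pair of near-isogenic corn hybrids, of which the purple one holds anthocyanins, mostly cyanidin-3-O-glucoside, and the yellow one does not. The mice were 3 months old when the feeding began and it lasted 10 months, and an age of 12 months is given in their labels. The 15 animals came from 6 litters, and the litter of each animal was not used here.

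Each library gave a list of enriched regions (peaks, called islands by SICER2) with a score. The lists held from 7825 peaks in YD_1 to 33752 peaks in CR_3, and the reads behind them, recovered from the steps of the scores, ranged from 5.59 M in CR_1 to 15.4 M in YD_1 (M for mega). The deepest library, YD_1, was thus the one with the shortest list. A peak lay within 1 kb of a transcription start site (TSS) of 17.5% (YD_3) to 54.6% (HF_1) of the protein-coding genes. The library names have the form PATChIP in 5 libraries (CR_1, CR_2, HF_2, HF_3 and RD_1) and ChIP in the other 10. Of 10 hepatocyte markers fixed for this work, 5 to 10 had a peak in each library, and of 10 markers of other organs none had one except 1 in HF_2.

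For each gene the highest-scoring peak within 1 kb of any of its TSSs was taken. Its width in bp and its score percentile, the percent of peaks in the same list with a lower score, were the measures compared, and both were set to 0 where there was no peak. In sections of liver, a change in the share of a cell type and a change of the mark within its cells cannot be told apart.

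Most of the 37 genes were marked in most livers. A peak was present in all 15 libraries at 12 of them (32.4%, against 9.46% of all protein-coding genes), in 13 or 14 libraries at 8, in 3 to 12 libraries at 13 and in 2 libraries at 1. The 12 were Nr5a2, Nr1h3, Rxra, Rara, Rxrb, Nr3c2, Nr2f2, Nr2f6, Nr6a1, Rora, Ncor1 and Ncoa3. No library had a peak at the progesterone receptor gene Pgr, the vitamin D receptor gene Vdr or Rorb, the RAR-related orphan receptor of brain and retina.

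The number of genes of the list with a peak differed among the diets. It was 30, 30 and 23 of 37 in the 3 SD mice, 31, 33 and 34 in CR, 33, 31 and 33 in HF, 17, 22 and 18 in YD and 25, 24 and 22 in RD. Every YD mouse lay below every SD, CR and HF mouse, whereas RD overlapped SD through SD_3. The percentage of all protein-coding genes with a peak ran in parallel, from 32.7% to 43.1% in SD, 35.5% to 48.2% in CR, 47.6% to 54.6% in HF, 17.5% to 26.5% in YD and 27.8% to 34.7% in RD. The plot of peak width by gene and library shows the same order.

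**Figure D1:**
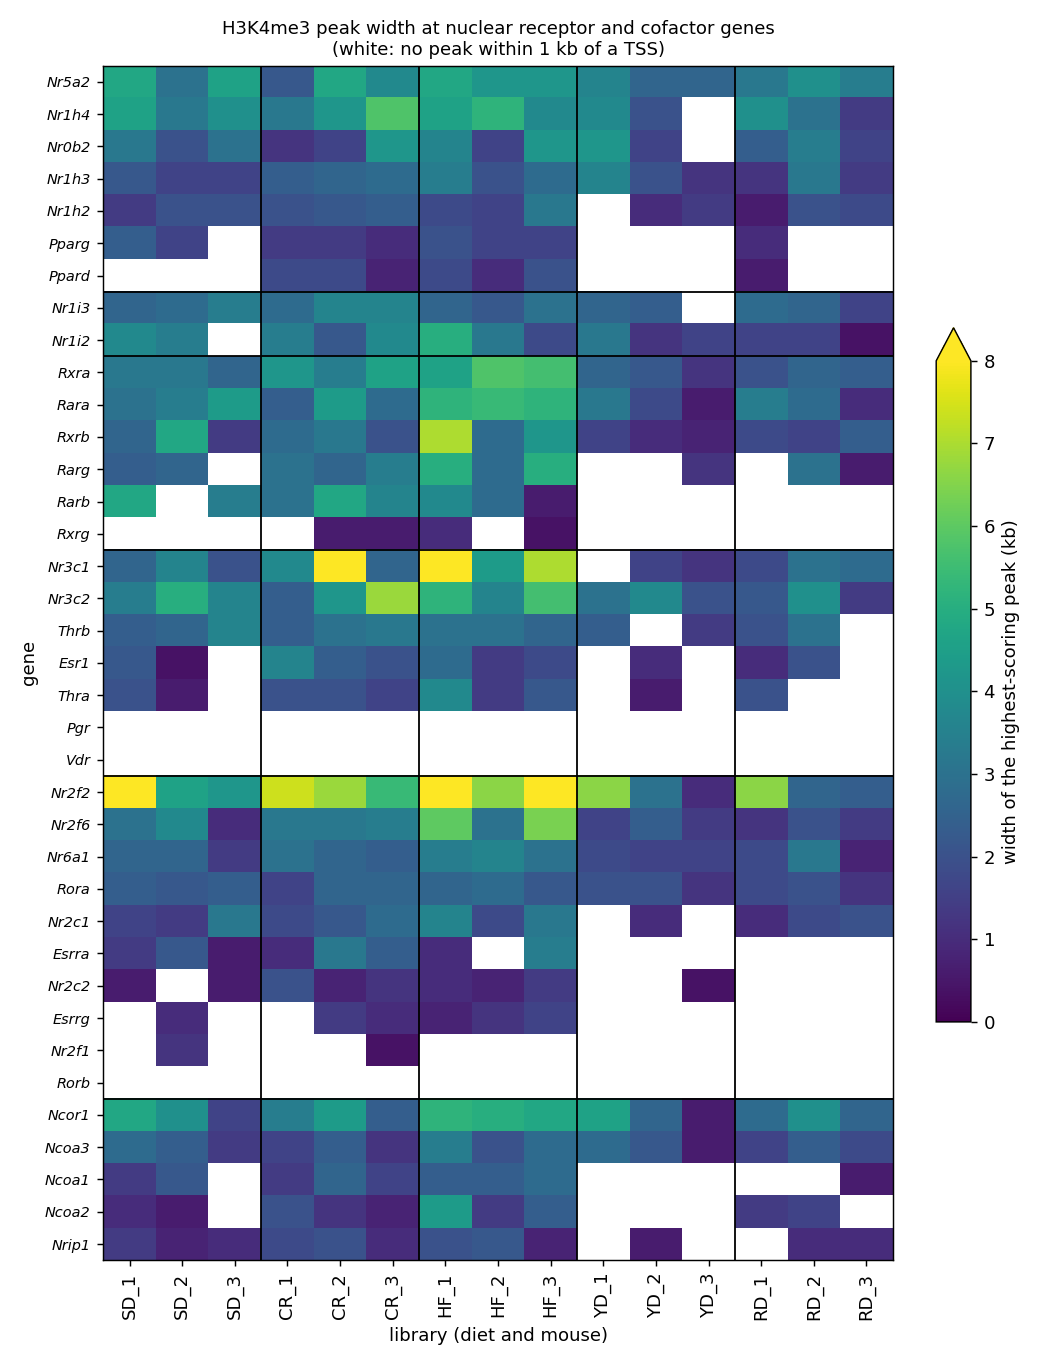
Width in kb (colour) of the highest-scoring H3K4me3 peak within 1 kb of a TSS for the 37 genes (rows, grouped by role) in the 15 libraries (columns, grouped by diet). White cells have no peak: they are most frequent in the YD columns, where 17 to 22 of the 37 genes had a peak, and values above 8 kb share the last colour.

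Promoter sequences are shown for 6 of the genes because the promoters that carried a peak ranged from CpG-poor to CpG-rich. The windows are those of RefSeq on GRCm38.p6, from 250 bases before to 50 bases after a transcription start, written 5′ to 3′ on the strand of the gene. Capitals mark 3 motifs found on either strand: the nuclear receptor half-site AGGTCA, the GC box GGGCGG, and a retinoic acid element, written as GTTCA repeated in the same direction with 6 bases of any kind between the repeats. No match of one motif can lie inside a match of another by its fixed letters. Nr1h4 encodes the bile acid receptor FXR, Nr1i3 the xenobiotic receptor CAR, Rxra the common partner RXRα, Rarb the retinoic acid receptor β, and Ncoa1 the steroid receptor coactivator 1, and Rorb is shown as a CpG-rich promoter with no peak in any library. The windows lie at chr10:89506609-89506908 (Nr1h4, minus strand), chr1:171213720-171214019 (Nr1i3, plus), chr2:27676951-27677250 (Rxra, plus), chr14:16575427-16575726 (Rarb, minus), chr12:4477133-4477432 (Ncoa1, minus) and chr19:19111147-19111446 (Rorb, minus).
Nr1h4: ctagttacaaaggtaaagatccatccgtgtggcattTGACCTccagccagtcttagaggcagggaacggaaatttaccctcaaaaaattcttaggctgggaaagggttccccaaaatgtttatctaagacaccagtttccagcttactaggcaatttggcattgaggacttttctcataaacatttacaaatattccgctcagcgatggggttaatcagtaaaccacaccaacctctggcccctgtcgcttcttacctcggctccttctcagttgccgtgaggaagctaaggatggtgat
Nr1i3: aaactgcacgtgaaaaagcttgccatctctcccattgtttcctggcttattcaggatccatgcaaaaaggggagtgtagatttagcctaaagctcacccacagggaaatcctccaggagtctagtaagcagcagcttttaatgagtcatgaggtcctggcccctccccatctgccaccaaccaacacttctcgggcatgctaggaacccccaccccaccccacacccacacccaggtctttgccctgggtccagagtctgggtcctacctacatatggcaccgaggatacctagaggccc
Rxra: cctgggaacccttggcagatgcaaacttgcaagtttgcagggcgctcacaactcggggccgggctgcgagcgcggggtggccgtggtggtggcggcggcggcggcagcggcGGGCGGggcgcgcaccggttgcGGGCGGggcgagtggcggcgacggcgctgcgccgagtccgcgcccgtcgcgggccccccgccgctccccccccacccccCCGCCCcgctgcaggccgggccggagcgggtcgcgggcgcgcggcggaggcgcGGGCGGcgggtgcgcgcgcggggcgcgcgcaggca
Rarb: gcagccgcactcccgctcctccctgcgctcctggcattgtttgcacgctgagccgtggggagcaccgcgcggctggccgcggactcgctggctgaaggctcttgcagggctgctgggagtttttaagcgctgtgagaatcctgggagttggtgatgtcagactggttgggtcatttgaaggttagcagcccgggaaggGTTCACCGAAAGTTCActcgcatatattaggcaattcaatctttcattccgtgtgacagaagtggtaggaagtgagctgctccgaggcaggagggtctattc
Ncoa1: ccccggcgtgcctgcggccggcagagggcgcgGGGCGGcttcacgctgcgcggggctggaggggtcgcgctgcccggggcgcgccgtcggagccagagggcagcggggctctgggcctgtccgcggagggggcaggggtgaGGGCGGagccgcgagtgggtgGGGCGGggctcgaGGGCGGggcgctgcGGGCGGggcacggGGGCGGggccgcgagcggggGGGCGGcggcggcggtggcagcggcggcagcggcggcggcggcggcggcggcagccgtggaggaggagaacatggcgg
Rorb: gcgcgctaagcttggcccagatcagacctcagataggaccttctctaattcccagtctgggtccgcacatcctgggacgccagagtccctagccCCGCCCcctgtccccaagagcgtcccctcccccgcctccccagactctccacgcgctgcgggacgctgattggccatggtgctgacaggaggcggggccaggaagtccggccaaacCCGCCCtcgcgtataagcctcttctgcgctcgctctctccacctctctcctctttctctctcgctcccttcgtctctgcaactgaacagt

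The ratio of observed to expected CpG was 0.144 in the window of Nr1i3 and 0.449 in that of Nr1h4, both with a peak within 1 kb in 14 of 15 libraries. It was 1.08 at Rxra, with a peak in 15 libraries, 1.04 at Ncoa1 with 9, 0.696 at Rarb with 8 and 0.713 at Rorb with 0. The Nr1h4 window holds 1 half-site, Rxra 4 GC boxes, Ncoa1 7 and Rorb 2. The window of Rarb holds the retinoic acid element, which is present in 1 of the 54 windows of these genes and in 14 of 20061 windows of protein-coding genes (0.0698%). A match of letters is a description of the window and not a mapped binding site.

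RefSeq windows were matched for 33 of the 37 genes, 54 windows in all. Their median CpG ratio was 0.573, against 0.591 over the windows of protein-coding genes. The half-site was present in 10 windows (18.5%, against 14.3%) and the GC box in 25 (46.3%, against 48.0%). Windows poor and rich in CpG both had peaks within 1 kb of their starts, which is what marked means here. Such a peak need not cover the window, and that of Rxra began downstream of its window in most libraries. Those of Nr1i2, Nr1i3 and Nr0b2, with ratios of 0.130 to 0.162, were marked in 14 libraries, and the windows of Esrra, Ppard, Pparg and Ncoa1, with ratios of 0.781 to 1.04, in 7 to 9. Those of Rxra, Rxrb, Nr2f6 and Ncor1, with ratios of 0.951 to 1.08, were marked in 15, and that of Nr5a2, with 0.152, in 5. The plot of CpG content against the number of marked libraries shows many and few marked libraries at both low and high ratios.

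**Figure D2:**
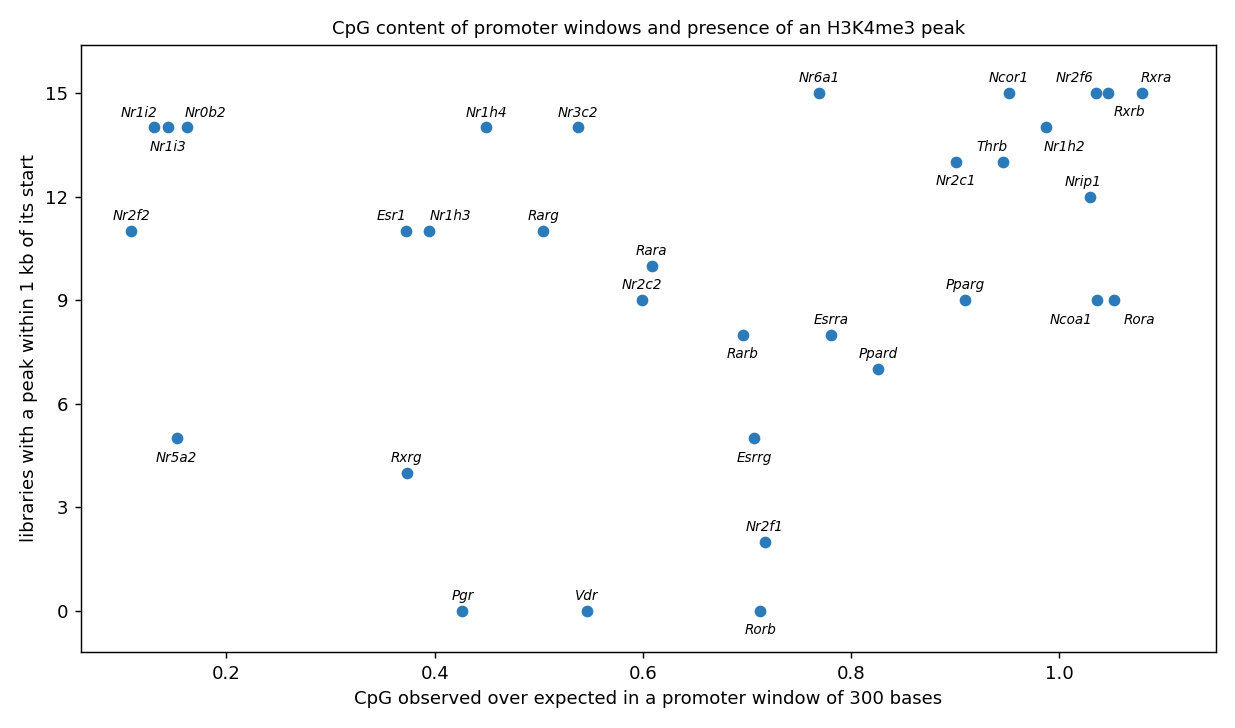
CpG observed over expected (x axis) in a window of 300 bases at 1 start of each of 33 genes, against the number of the 15 libraries with a peak within 1 kb of that start (y axis). The window with most marked libraries was taken for each gene, or the one of higher ratio in a tie, and other starts of the same gene bring the marked libraries to 15 for Nr5a2, Rora, Rara, Nr1h3, Nr2f2 and Nr3c2 and to 6 for Esrrg.

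Several of the receptors have more than 1 promoter, and the peaks were not shared evenly among them. Starts within 1 kb of each other were joined into 1 promoter. Nr5a2, which encodes the bile acid synthesis regulator LRH-1, had a peak in 15 of 15 libraries at the promoter 10886 bp inside the gene and in 5 at its first promoter. Rora, a receptor tied to the circadian clock and lipid metabolism, had one in 15 libraries at its last promoter, 635896 bp downstream of the first, and in 9 at the first. Rara, encoding the retinoic acid receptor α, was marked in 15 libraries at the promoter 32594 bp from the first start, in 10 and 8 at the pair before it and in 0 at the first. Rarb was marked in 8 libraries, all at its second promoter, the one with the retinoic acid element, which lies 243329 bp downstream of the first.

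The internal promoter of Nr1h4, 26927 bp downstream of the first, was marked in 14 libraries, and the first in 12. Of the 3 libraries without a peak at the first promoter, 2 were YD and 1 was CR. Nr1h3, encoding the oxysterol receptor LXRα, was marked in 15 libraries at its first annotated start and in 11 at its second promoter. The highest-scoring peak of Nr1h3 also lay within 1 kb of a TSS of Acp2, a lysosomal phosphatase gene on the opposite strand, in all 15 libraries. The mark therefore cannot be given to either gene alone. By the same distance of 1 kb, the peaks of Rxrb were shared with Slc39a7 and those of Ncor1 with Pigl in 15 of 15 libraries. ChIP has no strand, so the reads at such shared starts cannot be told apart.

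**Figure D3:**
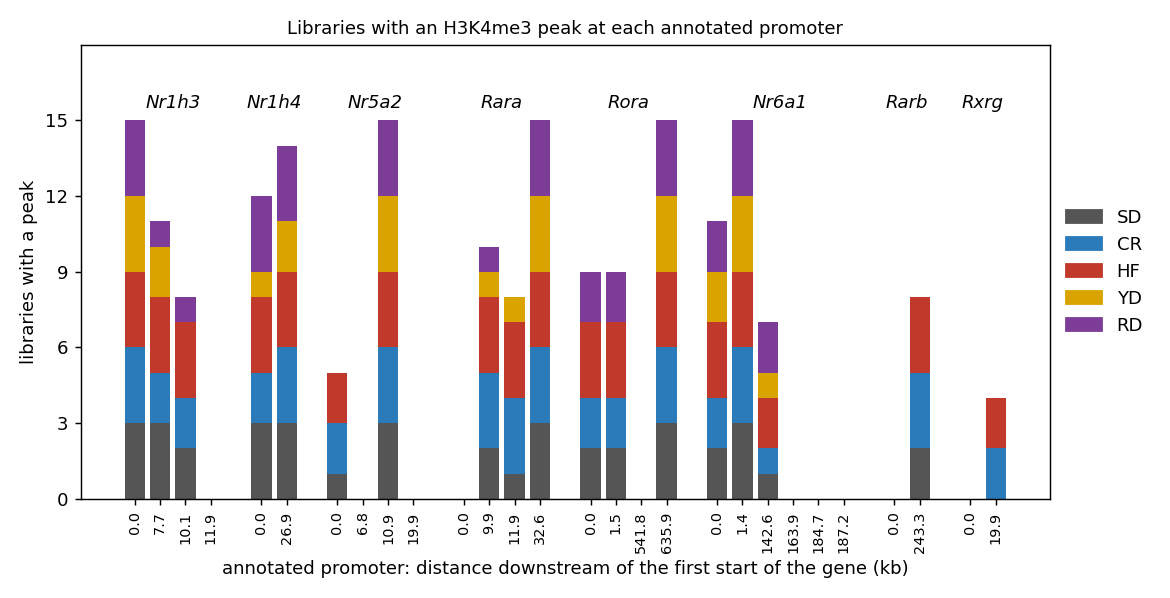
Number of libraries with a peak within 1 kb (bar height, of 15) at each annotated promoter of 8 receptor genes, with the distance in kb of that promoter downstream of the first start of the gene on the x axis and colours for the 5 diets, 3 mice each. A promoter downstream of the first carried the most peaks in Nr1h4 (14), Nr5a2, Rara, Rora and Nr6a1 (15 each), Rarb (8) and Rxrg (4). In Nr1h3 the first promoter did (15).

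The diets were compared with two-sided exact permutation tests on all 11200 protein-coding genes with a peak in at least 3 of the 15 libraries, with Benjamini-Hochberg adjustment across that whole set. Of the 37 genes, 33 passed this filter, and Nr2f1, Rorb, Pgr and Vdr did not. Genes marked in few libraries entered through the diets in which they are marked, so counts over the 33 are descriptions read beside those over all genes. Each library is 1 mouse. The p-values come from rearranging all mice of a contrast, so differences between diets pooled on the same side are part of the spread.

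The corn diets gave the only contrast with genes past the threshold when all 15 libraries were used. With the 6 YD and RD mice set against the 9 others, peak width was lower at 10 of the 33 genes with an adjusted p under 0.05, against 15.7% of all genes tested, and higher at none of them and at none of all genes (3 of 11200 were higher at an unadjusted p under 0.05 in the exact test). The 10 were Nr1h4, Pparg, Rxra, Rarb, Thrb, Rora, Nr2c2, Esrra, Ncoa1 and Nrip1. The score percentile was lower at 13, against 28.0% of all genes: Pparg, Rxra, Rara, Rarb, Rarg, Nr3c1, Nr3c2, Thra, Nr2c1, Esrra, Ncoa1, Ncoa2 and Nrip1. By one measure or the other 17 genes passed, and 6 passed by both. The median difference of width was -1278 bp over the 33 genes and -933 bp over all genes, and that of the percentile -19.3 and -25.7. All 33 means of width and 32 of 33 means of the percentile were lower on corn, as were 97.5% and 96.6% of all genes tested, so the direction was common to nearly every promoter.

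These counts moved with single libraries. The 10 genes called by width became 0 without HF_1, YD_2, YD_3, RD_1 or RD_3, 3 without CR_2, HF_3 or YD_1, 4 without CR_3, 5 without SD_1 or HF_2, and 16 without SD_3. Where the count was 0, 18 to 23 of the genes had an unadjusted p under 0.05 in the exact test. The 13 called by percentile became 4 without YD_3, 5 without YD_1, 7 without YD_2, 8 without CR_3, HF_1 or HF_2, and 22 without SD_3. Among the 10 libraries of the ChIP name form, 5 corn diet mice against 5 others, width was lower at 33 of 33 genes (96.5% of all genes) with a median difference of -1400 bp, and 10 had an unadjusted p under 0.05 in the exact test, whose smallest p is 0.00794. No gene passed the adjustment there. Within the PATChIP form there was 1 corn diet mouse against 4, and the mean was lower at 31 of the 33 genes by width (88.5% of all genes) and at 25 by the percentile (72.9%). Of the 13 percentile calls only that of Rxra was kept when equal numbers of peaks were taken from every list, and none with the ChIP name form alone.

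The smallest p by the percentile was that of Rxra, a partner of FXR, LXR, PPAR, CAR, PXR and the retinoic acid and thyroid hormone receptors. Rxra lies on chr2:27676440-27762957, plus strand. Its peak was 3200, 3200 and 2600 bp wide in the 3 SD mice, 4200, 3400 and 4600 bp in CR, 4600, 5800 and 5600 bp in HF, 2600, 2200 and 1200 bp in YD and 2000, 2600 and 2400 bp in RD. The widest corn diet peaks thus equalled the narrowest SD peak. The mean was 2167 ± 528 bp (SD, n = 6) on corn and 4133 ± 1118 bp (n = 9) on the other diets (exact permutation test, adjusted p = 0.0361).

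The score percentile of Rxra separated the groups without overlap. It was 97.7, 99.3 and 97.3 in SD, 97.6 to 99.0 in CR, 99.3, 99.1 and 98.8 in HF, 88.9, 92.2 and 85.5 in YD and 94.5, 94.2 and 96.7 in RD. The means were 92.0 ± 4.13 on corn and 98.4 ± 0.813 on the other diets (p = 0.0002, the smallest the exact test can give, adjusted p = 0.0147). This call was kept when each of the 15 libraries was left out in turn and lost with the ChIP name form alone. The difference was -7.00 within the ChIP form of name, with an exact p of 0.00794, and -3.87 for the 1 against 4 libraries of the PATChIP form.

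The Rxra peak began downstream of the first annotated start in 14 of 15 libraries, with HF_2 the exception. On the other diets it ran on average from 917 ± 555 to 5049 ± 939 bp downstream of the start (n = 9), and on corn from 1294 ± 163 to 3460 ± 469 bp (n = 6). The gap between the groups was thus larger at the far end than at the near end.

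**Figure D4:**
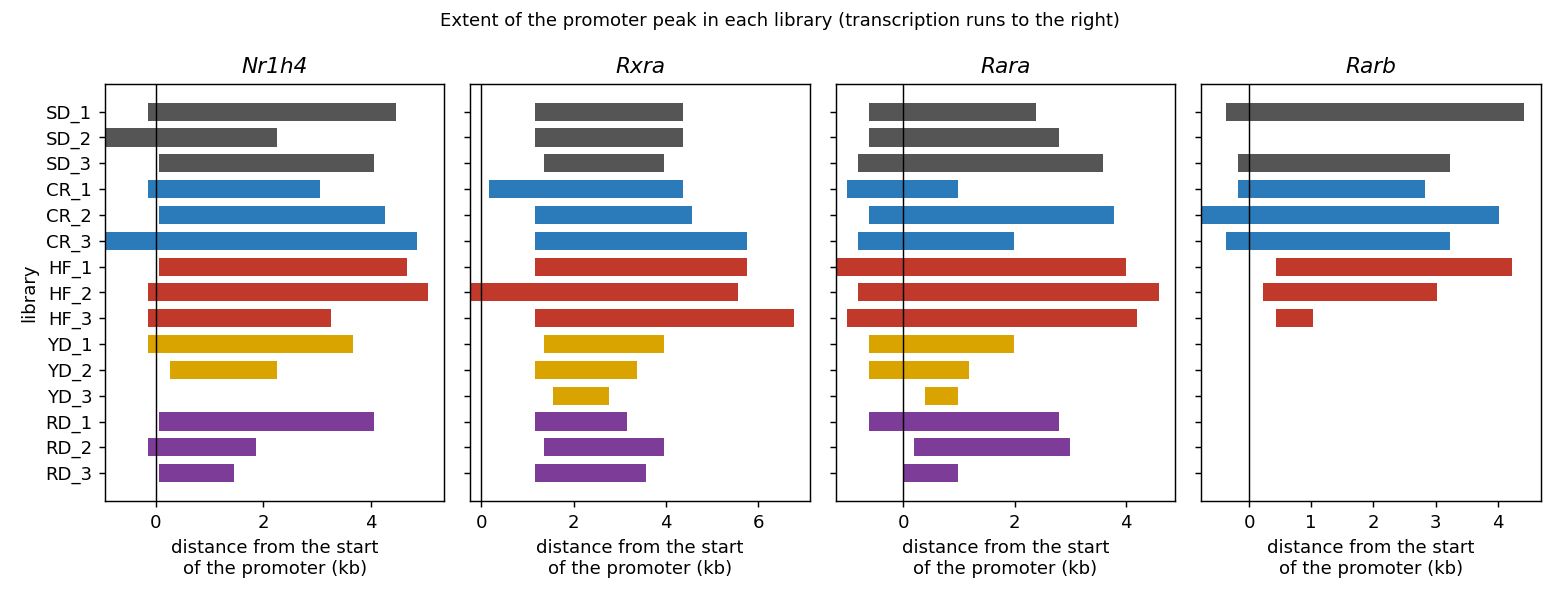
Extent of the H3K4me3 peak (bars, distance in kb from the start, transcription to the right) at the promoter of Nr1h4, Rxra, Rara and Rarb that was marked in most libraries, with 1 row per library and colours for diets. The YD and RD bars of Rxra end 2760 to 3960 bp from the start, and those of the other diets 3960 to 6760 bp. Rarb has no bar in the 6 corn diet libraries.

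Among the other retinoid receptors, Rarb differed most. It encodes a receptor whose own promoter is a textbook target of retinoic acid. Its peak was 4800, 0 and 3400 bp wide in SD, 3000, 4800 and 3600 bp in CR and 3800, 2800 and 600 bp in HF, and no peak was present in any YD or RD mouse. The gene was thus marked in 8 of 9 mice on the other diets and in 0 of 6 on corn. The mean was 2978 ± 1675 bp (n = 9) against 0 (exact permutation test, adjusted p = 0.0361 for width and 0.0253 for the percentile). The percentile call was lost without YD_3, and the width call without HF_1, YD_1, YD_2, YD_3, RD_1 or RD_3. The peak also lay within 1 kb of a TSS of the antisense transcript Gm48162 in all 8 libraries.

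Rara was marked in every liver. Its peak was 3000, 3400 and 4400 bp wide in SD, 2400, 4400 and 2800 bp in CR, 5200, 5400 and 5200 bp in HF, 3200, 1800 and 600 bp in YD and 3400, 2800 and 1000 bp in RD. The score percentile was 60.0 to 68.7 in YD and 81.4 to 90.2 in RD, against 76.6 to 98.2 in the other mice, with CR_1 the lowest of those. It averaged 75.7 ± 12.8 on corn and 93.7 ± 6.65 elsewhere (exact permutation test, adjusted p = 0.0259), a call lost without YD_1 or YD_3, while the difference of width did not pass (adjusted p = 0.0553). Rarg, the third retinoic acid receptor, had a peak in 3 of 6 corn diet mice and 8 of 9 others, with mean percentiles of 21.7 ± 35.9 and 75.1 ± 29.2 (adjusted p = 0.0460 in the exact test). That call remained only without SD_3 or RD_2 among the 15 omissions.

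Of the receptors grouped under bile acid and lipid sensing, Nr1h4 and Pparg passed the test. Nr1h4, the bile acid receptor FXR, lies on chr10:89454234-89533585, minus strand, and its highest-scoring peaks were 4600, 3200 and 4000 bp in SD, 3200, 4200 and 5800 bp in CR, 4600, 5200 and 3800 bp in HF, 3800, 2000 and 0 bp in YD and 4000, 3000 and 1400 bp in RD. The peaks given for HF_3 and RD_2 lay at the first promoter and the others at the internal one. At the internal promoter HF_3 had 3400 bp and RD_2 had 2000 bp. By the highest-scoring peak YD_3, with no peak, and RD_3 were the lowest, while YD_1 and RD_1 lay among the mice of the other diets. The mean was 2367 ± 1536 bp on corn and 4289 ± 867 bp on the other diets (exact permutation test, adjusted p = 0.0471), and of the 15 omissions of a library the call was kept only in those of SD_2, SD_3, CR_1 and YD_1. The percentile did not pass (68.7 ± 36.4 and 91.7 ± 5.35, adjusted p = 0.0748 in the exact test).

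Pparg, the receptor best known from fat cells, had a peak in 8 of the 9 mice on the other diets, 1000 to 2400 bp wide, and in 1 of 6 on corn, RD_1, with 1000 bp. The means were 167 ± 408 and 1444 ± 669 bp (exact permutation test, adjusted p = 0.0395), and the percentile was also lower on corn (adjusted p = 0.0336). The width call was kept only without SD_2, SD_3, CR_1, CR_3 or RD_2, and the percentile call was lost without CR_3, HF_1, HF_2 or any YD mouse. Ppard, a fatty acid receptor expressed in many tissues, had no peak in SD, was marked in 3 of 3 CR mice (1800, 1800 and 800 bp) and 3 of 3 HF mice (1800, 1000 and 2000 bp), and had 1 peak of 600 bp among the corn diet mice, in RD_1. Its corn contrast did not pass (adjusted p = 0.0878 for width in the exact test).

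Nr5a2, Nr1h3 and Nr0b2, of the same role, did not pass. Nr5a2 had a peak of 2200 to 4800 bp in every mouse, and its percentile was 96.4 ± 2.01 on corn and 93.8 ± 12.5 elsewhere, the only mean of the 33 that was higher on corn (adjusted p = 0.980 in the exact test). Nr1h3 was 1200 to 3600 bp wide in every mouse (2100 ± 1056 and 2378 ± 595 bp, adjusted p = 0.598 in the exact test). Nr0b2, the corepressor-like receptor SHP that FXR induces, was marked in 14 libraries with 1200 to 4200 bp and absent in YD_3 (2200 ± 1486 and 2733 ± 1162 bp, adjusted p = 0.489 in the exact test). The corn diet widths of Nr5a2, 2600 to 4000 bp, lay within the range of the other mice, and those of Nr1h3, 1200 to 3600 bp, reached beyond their 1600 to 3400 bp on both sides.

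The xenobiotic receptors did not pass the test. Nr1i3 (CAR) was 2200 to 3600 bp wide in the 9 mice of the other diets and in the corn diet mice was 2600, 2400 and 0 bp in YD and 2800, 2600 and 1600 bp in RD (adjusted p = 0.0744 in the exact test). Nr1i2 (PXR) was 3800, 3400 and 0 bp in SD, 3400, 2200 and 3800 bp in CR, 5000, 3200 and 1800 bp in HF, 3200, 1200 and 1600 bp in YD and 1600, 1600 and 400 bp in RD (adjusted p = 0.124 in the exact test). Only SD_3 lacked a peak at Nr1i2 and only YD_3 at Nr1i3. The range of Nr1i2 on corn, 400 to 3200 bp, overlapped that of the other diets.

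**Figure D5:**
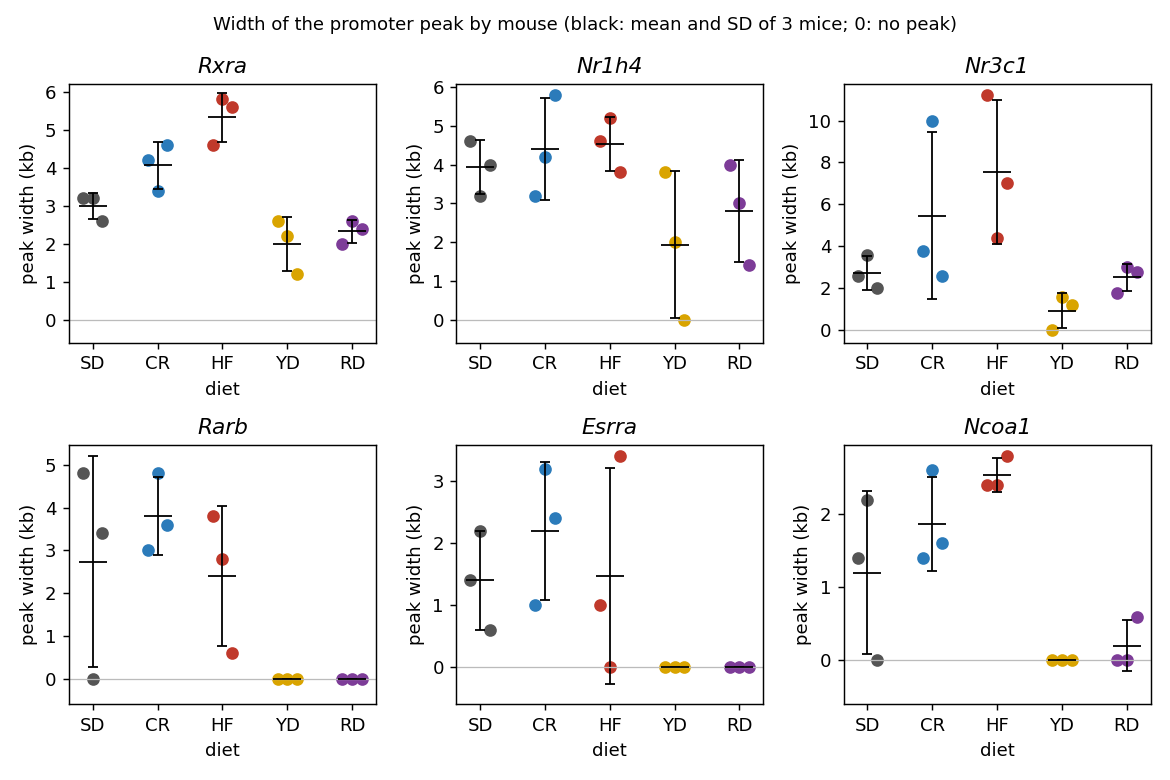
Peak width in kb for each mouse (points) by diet, with the mean and SD of the 3 mice (black), for Rxra, Nr1h4, Nr3c1, Rarb, Esrra and Ncoa1, where 0 stands for no peak. Rarb and Esrra are at 0 in all 6 mice on YD and RD and Ncoa1 in 5 of them, and Nr3c1 spreads from 4400 to 11200 bp in HF.

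Of the 5 steroid and thyroid hormone receptors tested, 1 passed by width and 3 by the percentile. Nr3c1, the glucocorticoid receptor, had highest-scoring peaks of 2600, 3600 and 2000 bp in SD, 3800, 10000 and 2600 bp in CR, 11200, 4400 and 7000 bp in HF, 0, 1600 and 1200 bp in YD and 1800, 3000 and 2800 bp in RD. Its percentile was 79.8, 86.6 and 42.8 in SD, 92.7, 99.1 and 78.9 in CR, 99.4, 95.0 and 97.8 in HF, 0, 1.91 and 35.8 in YD and 68.0, 54.4 and 64.2 in RD. The 3 YD mice were the lowest of all, and SD_3 lay within the range of the corn diet mice. The mean percentile was 37.4 ± 30.3 on corn and 85.8 ± 17.9 elsewhere (exact permutation test, adjusted p = 0.0236, kept in 15 of 15 omissions but lost with equal numbers of peaks, with percentiles among peaks of protein-coding genes and with the ChIP name form), and width did not pass (adjusted p = 0.0781).

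Nr3c2, the mineralocorticoid receptor, was marked in every mouse, with a percentile of 62.5 to 93.3 on corn and 89.6 to 98.9 elsewhere (84.0 ± 11.8 and 95.9 ± 3.27, exact permutation test, adjusted p = 0.0259), a call lost without YD_1 or YD_3. Thrb, the main thyroid hormone receptor of the liver, was 2400 to 3600 bp wide in the 9 mice of the other diets and 2400, 0 and 1400 bp in YD and 2000, 3000 and 0 bp in RD (1467 ± 1250 against 2867 ± 400 bp, adjusted p = 0.0452 in the exact test, kept only without SD_1, SD_3, CR_1 or RD_2). Thra, the thyroid hormone receptor of most other tissues, was marked in 2 of 6 corn diet mice and 8 of 9 others, and its percentile passed (9.84 ± 17.6 and 47.3 ± 25.8, adjusted p = 0.0489 in the exact test) but was kept only without SD_3 or RD_1. Esr1, the estrogen receptor α, had a peak in 3 of 6 and 8 of 9 mice, from 400 to 3600 bp wide, and did not pass (adjusted p = 0.110 for width and 0.0708 for the percentile in the exact test).

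Among the orphan receptors, Esrra, a regulator of mitochondrial genes, had no peak in any corn diet mouse. Its peaks were 1400, 2200 and 600 bp wide in SD, 1000, 3200 and 2400 bp in CR and 1000, 0 and 3400 bp in HF. HF_2 was the only one of these 9 without a peak, and the percentile averaged 54.0 ± 30.2 (exact permutation test, adjusted p = 0.025 for the percentile and 0.0477 for width). The percentile call was kept in 15 of 15 omissions but lost with equal numbers of peaks, peaks no lower than the median score, percentiles among peaks of protein-coding genes and the ChIP name form, and the width call was kept only without SD_3, CR_1 or HF_2. Esrrg, named after its values were seen, was also absent from all 6 corn diet mice but was present in only 6 of the other 9 and did not pass (adjusted p = 0.0781 for width in the exact test). A gene marked in none of the 6 corn diet mice and at least 5 of the 9 others was found 3 times in the list (Rarb, Esrra and Esrrg) and 1207 times among the 11200 genes tested (10.8%).

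Of the other orphan receptors, Rora, Nr2c1 and Nr2c2 each passed by 1 measure. Rora was 1200 to 2000 bp wide on corn and 1600 to 2800 bp elsewhere (1700 ± 395 and 2378 ± 353 bp, exact permutation test, adjusted p = 0.0452, kept only without SD_3, CR_1 or RD_2). Nr2c1, the testicular receptor 2, had a peak in 4 of 6 corn diet mice and 9 of 9 others, with percentiles of 25.8 ± 23.7 and 64.2 ± 18.2 (adjusted p = 0.0316 in the exact test, lost without CR_3, HF_1, HF_2 or any YD mouse). Nr2c2, the testicular receptor 4, had a peak of 400 bp in YD_3 and none in the other corn diet mice, against 8 of 9 mice on the other diets with 600 to 2000 bp (adjusted p = 0.0370 for width in the exact test, kept only without an SD mouse, CR_1, HF_2 or RD_2).

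Nr2f2, encoding COUP-TFII, had the widest peak of the list with a mean of 6013 bp over the 15 mice. It was 9600, 4600 and 4200 bp in SD, 7400, 6800 and 5400 bp in CR, 15200, 6600 and 8200 bp in HF, 6600, 3000 and 1000 bp in YD and 6600, 2600 and 2400 bp in RD. YD_1 and RD_1 lay among the other mice and the remaining corn diet mice below all of them, and the contrast did not pass (adjusted p = 0.0770 in the exact test). Its relative Nr2f1 was marked in SD_2 with 1200 bp and in CR_3 with 400 bp and in no other mouse. Nr2f6 and Nr6a1 were marked in every mouse, with 1000 to 6400 and 800 to 3600 bp, and did not pass.

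The cofactors held both genes marked everywhere and genes with few peaks on corn. Ncoa1 (steroid receptor coactivator 1) was 1400, 2200 and 0 bp wide in SD, 1400, 2600 and 1600 bp in CR and 2400, 2400 and 2800 bp in HF, and among the corn diet mice only RD_3 had a peak, of 600 bp. The mean was 100 ± 245 bp on corn and 1867 ± 872 bp elsewhere (exact permutation test, adjusted p = 0.0351, lost without HF_1, YD_2, YD_3, RD_1 or RD_3), and the percentile was 3.82 ± 9.35 and 49.3 ± 24.7 (adjusted p = 0.0302, lost without YD_1, YD_2 or YD_3). Nrip1, the corepressor RIP140, was marked in 9 of 9 mice on the other diets, with 800 to 2200 bp, and in 3 of 6 on corn, with 600 to 1000 bp. Its percentile was 21.3 ± 25.8 and 63.7 ± 14.5 (adjusted p = 0.0218 in the exact test), kept in 15 of 15 omissions but lost with peaks that hold a TSS and in the same 4 settings as Esrra. Its width passed as well (adjusted p = 0.0471 in the exact test) but was kept only without SD_2, SD_3, CR_1 or RD_2.

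Ncoa2, a second p160 coactivator, had no peak in YD, peaks of 1400 and 1600 bp in RD_1 and RD_2 and peaks in 8 of 9 other mice. Its percentile was 12.5 ± 22.6 and 58.0 ± 24.7 (exact permutation test, adjusted p = 0.0355, kept only without SD_2, SD_3, CR_1, RD_1 or RD_2). Ncor1, the nuclear receptor corepressor, was marked in every mouse with 600 (YD_3) to 5200 bp (HF_1), and Ncoa3 with 600 to 3400 bp. Neither passed, with adjusted p = 0.203 for Ncor1 and 0.491 for Ncoa3 by width in the exact test. A peak in at most 1 of 6 corn diet mice and at least 8 of 9 others was found for 5 genes of the list (Pparg, Rarb, Nr2c2, Esrra and Ncoa1), and for 6.97% of all genes tested.

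No gene of the list, and none of the 11200 genes, passed an adjusted p of 0.05 when one diet was set against the other 12 mice in the exact test, by either measure. At an unadjusted p under 0.05 the width was higher in HF at 14 of the 33 genes, against 35.3% of all genes. The percentile was higher in HF at 3 (17.0%). The smallest p in HF was that of Rara and Rxra. The HF widths of Rara, 5200 to 5400 bp, lay above the 600 to 4400 bp of the other 12 mice (5267 ± 115 and 2767 ± 1178 bp, p = 0.0044, adjusted p = 0.0668 in the exact test). Those of Rxra, 4600 to 5800 bp, met the upper end of the others at 4600 bp in CR_3 (adjusted p = 0.0668 in the exact test).

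Kupffer, endothelial and stellate cell markers had more peaks in HF_1 than in any other library. Of 8 Kupffer cell markers 5 had a peak in HF_1, 1 in HF_3 and 0 in each of the other 13 libraries. Of 8 sinusoidal endothelial markers 8, 3 and 6 had a peak in HF, against 5, 1 and 3 in SD, 2, 2 and 3 in CR, 1, 1 and 0 in YD and 1, 1 and 1 in RD. Hepatic stellate cell markers were marked at 4, 1 and 2 of 8 in HF and at 0 to 3 elsewhere, cholangiocyte markers at 1, 0 and 1 of 6 in HF and up to 2 in CR_2, and lymphocyte markers at 1, 0 and 0 of 6 in HF and at most 1 elsewhere. All 10 hepatocyte markers were marked in each HF mouse. The part of these differences in the values of the nuclear receptor genes was not tested.

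In YD the width was lower at 6 of the 33 genes at an unadjusted p under 0.05 in the exact test, against 18.8% of all genes, and the percentile at 14, against 33.6%. Nr2c1, Nr3c1, Rara and Rxra had percentiles in the 3 YD mice below all other 12, each with the smallest p the exact test can give (0.0022, adjusted p = 0.0541). These 4 genes passed the adjustment when SD_3, RD_1 or RD_3 was left out. In CR the width was higher at 4 genes (Ppard, Rarb, Nr2c2 and Esr1), against 4.2% of all genes, and the percentile at 4 (Ppard, Rarb, Nr2c2 and Esrra), against 4.31%. RD had lower widths at 0 of the 33, against 2.71% of all genes, and a lower percentile at 1, Thrb (4.2%). SD had no gene of the list past this level (0.929% of all genes by width and 0.688% by percentile).

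Pairs of diets were described by whether the 3 mice of one diet all lay above the 3 of the other, since 0.1 is the smallest two-sided p of an exact test on 3 mice against 3. The comparisons with SD share the SD mice. Without overlap in width, HF was higher than SD at 9 of the 33 genes (18.1% of all genes), CR was higher than SD at 4 (5.39%), YD was lower than SD at 5 (16.2%) and RD was lower than SD at 2 (8.78%). RD was higher than YD at 1 gene (4.73%) and HF higher than CR at 3 (11.5%). By the percentile, HF was higher than SD at 6 (16.1%), YD lower at 8 (23.0%) and RD lower at 4 (8.01%), and CR was higher than SD at 1 (5.52%) and lower at 2 (0.589%). RD was higher than YD at 6 (10.7%) and HF higher than CR at 7 (7.24%).

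Genes that did not overlap in both measures were few. Nr3c1 was 933 ± 833 bp wide in YD, 2533 ± 643 bp in RD, 2733 ± 808 bp in SD and 7533 ± 3431 bp in HF (n = 3 each). YD lay below SD and RD, and HF above SD, by the width and percentile of the highest-scoring peak. Nr3c1 had further peaks in some libraries, and its highest-scoring peak did not lie at the same promoter in all of them. Summed over its peaks within 1 kb of a TSS, the widths were 6000, 3600 and 3600 bp in SD and 11200, 5400 and 7000 bp in HF. By that sum HF overlapped SD, while YD (0, 1600 and 1200 bp) stayed below SD and RD. Esrra was lower in YD and in RD than in SD (0 against 1400 ± 800 bp). Ppard was higher in CR (1467 ± 577 bp) and in HF (1600 ± 529 bp) than in SD (0), and Nr2c1 lower in YD than in SD (333 ± 577 and 2067 ± 987 bp). Between HF and CR, Rara (5267 ± 115 and 3200 ± 1058 bp) and Ncor1 (5000 ± 200 and 3400 ± 1000 bp) were higher in HF.

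The purple and yellow corn diets, which differ in anthocyanins, were compared with each other at the same genes. By the percentile the 6 genes with RD above YD were Nr5a2, Rxra, Rxrb, Rara, Nr3c1 and Nr2c1, and no gene of the list had RD below YD. Fewer genes of the list separated when equal numbers of peaks were taken from every list. The same held with percentiles among peaks of protein-coding genes and with peaks that hold a TSS, as given below. At Rxra the percentile was 94.2 to 96.7 in RD and 85.5 to 92.2 in YD, and at Nr5a2 it was 97.3 to 98.7 and 92.9 to 96.3. By width only Nr3c1 separated, and its highest-scoring peaks did not all lie at the same promoter. At the promoter 28120 bp from its first start, the peaks were 800 bp in RD_2, 2800 bp in RD_3, 1600 bp in YD_2 and 1200 bp in YD_3. RD_1 and YD_1 had no peak there, so the diets overlapped at that promoter. The widths of Rxra were 2000 to 2600 bp in RD and 1200 to 2600 bp in YD. The number of all genes that separated also lay on the side of RD, 1195 against 38 of 11200 by the percentile.

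Other genes of the same pathways were listed beside the 37. Of 16 other nuclear receptors 9 were tested on corn against the other diets, and width was lower at 3 (Nr1d1, Nr4a2 and Nr4a3) and the percentile at 2. The widest, Ppara, the fatty acid receptor that fasting engages, and Hnf4a, the receptor that defines hepatocytes, had a peak in 15 of 15 libraries with means of 4373 and 4173 bp and did not pass by width (adjusted p = 0.0774 and 0.0855 in the exact test). Of 20 other cofactors width was lower at 4 and the percentile at 9. The widest were the acetyltransferase gene Ep300, which did not pass by width (adjusted p = 0.0515 in the exact test), and the coactivator gene Ppargc1b, which did (adjusted p = 0.0448).

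Of 33 listed target genes of these receptors 27 were tested, and 1 was lower by width and 3 by the percentile (Srebf1, Dhrs3 and Fkbp5, named after their values were seen). The one by width was Klf9, a gene induced by thyroid hormone and glucocorticoids, with 3533 bp on corn and 5600 bp on the other diets (exact permutation test, adjusted p = 0.0327). Of the 10 hepatocyte markers 1 was lower by each measure. These counts stand beside 15.7% of all genes by width and 28.0% by the percentile, and no difference between the lists was tested.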

How the data were processed

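H3K4me3 was profiled by PAT-ChIP-seq in 15 livers, 1 library each. The authors mapped 50 bp single-end reads on mm10 using bwa, used SAMtools to drop reads that were unmapped, had a MAPQ under 1, were duplicates or lay off chromosomes 1 to 19 and X, and called peaks in each library separately with SICER2 (fragment 200 bp, window 200 bp, gap 400 bp, FDR under 0.05). Tool versions are not given in the sources used here. The score that the authors deposited adds up, across the enriched windows of a peak, the negative natural log of a Poisson probability, and it is not scaled between libraries. It was therefore used only as a rank within a list. Read counts per peak were not used here, so the errors given are between animals and no counting interval is printed.

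Diets and replicate numbers came from the sample labels. Peaks were joined to GENCODE M21 starts within 1 kb, and genes with a peak in at least 3 libraries were tested. Each diet was compared with the other 12 mice (455 arrangements) and YD plus RD with the other 9 (5005 arrangements) by two-sided exact permutation tests of the difference of means, with Benjamini-Hochberg adjustment over 11200 genes and a threshold of 0.05. The calculation was tested on simulated data and against scipy. Reads per library were estimated with an effective genome fraction of 0.74. Promoter windows came from RefSeq (GRCm38.p6).

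The genes and lists were chosen with earlier results of these data known. By rule, 30 genes were described, by the values of each mouse or by ranges, counts or means. They were the known hepatocyte receptors and the genes with an adjusted p under 0.05 in a contrast above (the corn contrast gave all of them). They also included the genes whose diets did not overlap by both measures in a pair, and the widest and the rarely marked genes. The other 7 (Nr1h2, Nr2f6, Nr6a1, Rxrb, Rxrg, Esrrg and Ncoa3) are given by ranges or counts. Nr1h2, a second LXR gene, had a peak in 14 libraries and Rxrg in 4. Of the other lists, the widest pair of genes was named, apart from 1 gene that is not reported here. The alternatives were TSSs within 3 kb or inside a peak, equal numbers of top-scoring peaks per list (7825), peaks scoring no lower than the list median, peaks of 600 bp or more, no filter on genes, summed widths, log2 of width plus 200 bp, percentiles among peaks of protein-coding genes, 1 form of library name, a replicate block and the omission of each library. Calculations used scipy 1.17.1 and numpy 2.4.6 under Python 3.11.15, with pandas 2.3.3 for tables and matplotlib 3.10.9 for plots.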

Additional observations from a re-analysis of the deposited data

Results flagged for a closer look

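For each gene called in the corn contrast, the 6 corn diet mice and the 9 others were searched for a single mouse far from its group by Dixon's test, which marks about 1 group in 20 by chance. In 46 groups examined, 13 held such a mouse, and groups with many values of 0 give the test little to work on. Values outside their group, with the nearest other value, were as follows. On corn, the width of Ncoa1 was 600 bp in RD_3 where the others had no peak, with a percentile of 22.9. Pparg had 1000 bp and a percentile of 41.5 in RD_1 where the others had 0, and Nr2c2 had 400 bp in YD_3 where the others had 0. The percentile in RD_1 was 55.9 at Ncoa2 (nearest 19.3) and 43.4 at Thra (nearest 15.6).

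On the other diets, SD_3 was low at 4 genes, with a width of 0 at Ncoa1 (nearest 1400 bp) and percentiles of 0 at Ncoa2 (nearest 45.4), 0 at Rarg (nearest 72.7) and 42.8 at Nr3c1 (nearest 78.9). CR_1 was low at 2 genes, with a percentile of 76.6 at Rara (nearest 93.6) and a width of 1600 bp at Rora (nearest 2200 bp). SD_3 and CR_1 had the fewest reads of the 15 libraries, about 6.54 M and 5.59 M. The part of the read number in these values was not tested.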

How the results depend on the processing

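No difference called in the corn contrast changed sign under any alternative run. The counts of calls in the corn contrast moved, as did other values given below. In genes of the list and in all genes, the calls of 10 and 1757 by width became 1 and 883 with peaks that hold a TSS, 2 and 822 with the same number of peaks from every list, 2 and 871 with peaks at or above the median score, 0 and 183 with no filter (adjusted over all 21755 genes), 0 and 0 with the ChIP form of name alone, and 17 and 3362 on the log2 scale. The calls of 13 and 3142 by percentile became 1 and 75 with the same number of peaks, 4 and 574 above the median score, 5 and 1236 with no filter, 0 and 0 with the ChIP form of name, and 4 and 1131 with percentiles among peaks of protein-coding genes, and 1946 genes passed with peaks that hold a TSS. At an unadjusted p under 0.05 in the exact test, 24 genes of the list had a lower width with no filter, and 10 (width) and 14 (percentile) with the ChIP form of name. Apart from the smaller number of libraries and the larger number of genes, which those alternatives set, the cause was not tested. Leaving out 1 library gave 0 to 16 genes of the list and 118 to 2905 of all genes by width, and 4 to 22 and 1234 to 4802 by percentile. In YD against the other 12 mice it gave 0 to 4 and 0 to 736 by percentile. The median number of the 37 genes with a peak, 30, became 24 with the same number of peaks from every list. The percentile call of Rxra was lost under 1 of 24 alternatives, the ChIP form of name alone.

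Counts of genes without overlap in a pair by width became 0 for RD against YD with peaks that hold a TSS. With the same number of peaks they became 2 for CR against SD, 3 for YD against SD, 1 for RD against SD and 0 for RD against YD. Above the median score they became 1 for RD against SD and 3 for RD against YD, with the ChIP form of name 5 and 4, and with summed widths 8 for YD and 5 for RD against SD. By percentile, RD against YD became 3 with peaks that hold a TSS. With the same number of peaks CR against SD became 1, YD against SD 3 and RD against YD 1. With percentiles among peaks of protein-coding genes YD against SD became 5 and RD against YD 3. Leaving out 1 library gave, by width, 4 to 9 (CR), 9 to 15 (HF), 5 to 14 (YD) and 2 to 8 (RD) against SD, 1 to 4 for RD against YD and 3 to 11 for HF against CR, and by percentile 3 to 11, 6 to 12, 8 to 22, 4 to 14, 6 to 13 and 7 to 13 in the same order. A pair with 2 mice on one side separates more easily by construction.

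The replicate numbers did not pair the mice, since the deviations of same-numbered libraries of different diets had a median correlation near 0, 6 of 30 were over 0.1, and 4 of 15 libraries correlated best with one of their own number. With the replicate block the corn contrast called 0 genes of the list and 257 of all genes by width (25 of the list at an unadjusted p under 0.05 in the exact test), and 11 and 2069 by percentile. In the replicate block pairs, all 3 differences within numbers had one sign by width at 9 (CR), 15 (HF), 13 (YD) and 6 (RD) genes against SD, 7 for RD against YD and 9 for HF against CR, and by percentile at 8, 13, 13 and 7 against SD and 12 for HF against CR.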
